A study of Mus with 2 samples.

Results

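The signal of IL-4 reaches the nucleus of a macrophage through a short chain of proteins. Here 10 genes of that chain are described in bone marrow derived macrophages (BMDMs) given the FXR agonist GW4064 or its solvent DMSO. The genes were the receptor chains Il4ra, Il2rg and Il13ra1, the Janus kinases Jak1, Jak2, Jak3 and Tyk2, the transcription factors Stat6 and Stat3, and the adaptor Irs2. They were chosen by name, and every probe whose RefSeq transcript belongs to one of them was taken. This gave 15 of the 39429 probes of the array, and 10 of the 20144 genes that had a named probe.

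As background, IL-4 binds the alpha chain of its receptor, encoded by Il4ra, which then pairs with the common gamma chain (Il2rg) or with Il13ra1. The pair with the common gamma chain carries the kinases JAK1 and JAK3, and the pair with IL-13Rα1 carries JAK1 with TYK2 or JAK2 and also answers to IL-13. The kinases phosphorylate tyrosines of the alpha chain, STAT6 docks there, is phosphorylated in turn and moves to the nucleus as a dimer, where it switches on genes of alternative (M2) activation. IRS2 docks at the same chain and leads to PI3K. The arrays measured mRNA, so the phosphorylation that carries the signal was not seen.

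Both cultures came from bone marrow of 10-week-old male C57BL6/J mice, grown for 7 d with 10 ng/mL of M-CSF and then kept for 24 h with 10 ng/mL of IL-4, the M2 condition. DMSO or 10 µM GW4064 was added during the IL-4 culture. IL-4 was thus present in both groups, and no culture without IL-4 was on the arrays. There was 1 array per group, so that no gene has a replicate error or a p-value, and precision is limited by how few arrays there are. How many mice gave the marrow is not given in the sources used here. The values are spot intensities of a 1-colour Agilent array after the scanner software had subtracted the background. The 75th percentile of each array was set to a log2 value of 0, and a difference is the log2 value on the GW4064 array minus that on the DMSO array. Signals are printed before this scaling and differences after it, and since the GW4064 array was brighter (75th percentiles of 1209 with DMSO and 1265 with GW4064), a slightly higher signal can go with a difference of 0 or below.

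Of the 20144 genes, 13532 had a probe well above background, the software's mark for a reliable signal, on at least 1 array. The median log2 difference of these genes was 0.0068, and 66.3% of them lay within 0.2 of 0. By sign, 51.6% were higher and 48.2% lower, and these shares stand behind every count by sign below. Centring on spike-in RNA instead made every log2 difference given below 0.19 lower, so that those between 0 and 0.19 became negative, and put the median gene at -0.18. Probes printed at several spots had a median SD of 0.077 over their copies, a measure of spot noise and not of the spread between cultures. Of 8 listed macrophage markers, 7 were measured, each well above background on both arrays, with a median log2 difference of 0.058. Among them 5 were higher and 2 lower, namely Adgre1 (-0.25) and Csf1r (-0.24). The summed signal of the macrophage markers was 341224 with DMSO and 326560 with GW4064. Of 9 stromal markers, 8 were measured and 7 were lower with GW4064, and their summed signal was 37487 with DMSO and 21311 with GW4064. All 6 neutrophil markers with a probe were lower, with summed signals of 13805 and 8952. Of the T cell markers, Cd3d, Cd3g and Cd8a stayed at background on both arrays, whereas Cd3e (209 and 248) and Lck (163 and 172) were measured on both. Of the B cell markers, Cd79a and Pax5 stayed at background, Cd79b had signals of 282 and 236, and Ms4a1 was measured with DMSO only and was at least 2.47-fold lower with GW4064. Of 6 mast cell and basophil markers 2 were measured, both dim and lower, with summed signals of 55.6 and 38.9. The dendritic cell markers were all 3 measured, with a median log2 difference of 0.44. Among them Siglech had -0.041 from 1 bright probe, while its second probe stayed at background on both arrays (5.0 and 4.8). Zbtb46 was dim with 0.44. Flt3, at background with DMSO and read at 1 spot in a damaged area of the slide, was at least 4.94-fold higher. A second Flt3 probe stayed at background on both arrays (3.8 and 5.3). Of the 2 Zbtb46 probes, 1 was at background with DMSO and also lay in a damaged area. A spot counted as lying in a damaged area where at least 2 neighbours within 300 µm differed 8-fold or more between the arrays. In such bulk RNA, fewer cells of a type and less RNA per cell cannot be told apart, and the part of these other cells in the results below was not tested.

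The 10 genes differed little between the arrays, like most genes measured. Each of the 15 probes was measured reliably on both arrays, and 0 of the 10 genes reached a 2-fold difference in either direction. Of all genes measured, 2.04% were higher and 2.71% lower by that much. The log2 differences of the 10 genes ran from -0.59 to 0.0086 with a median of -0.14. Within 0.2 of 0 lay 8 of the 10, against 66.3% of all genes measured. By sign alone, 2 of the 10 were higher, against 51.6% of all genes measured, and those were Il2rg and Irs2 with 0.0086 and 0.0066. The median of the 10 was -0.33 after centring on the spike-in RNA. Both exceptions to the narrow range were lower, namely Il13ra1 and Jak2.

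**Figure D1:**
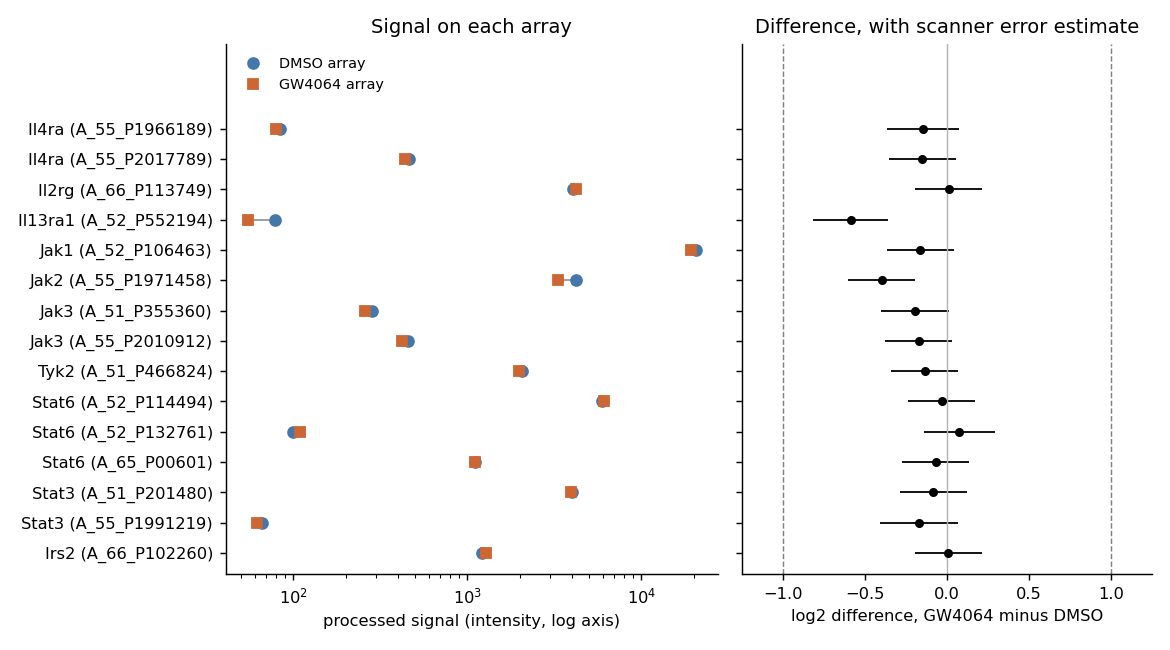
Left, processed signal of each of the 15 probes on the DMSO array (circles) and the GW4064 array (squares), on a log axis. Right, log2 difference, GW4064 minus DMSO, with the scanner software's error estimate as bars and dashed lines at 2-fold. The bars of Il13ra1 and Jak2 do not reach 0, and all points lie inside the 2-fold lines.

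Among the receptor chains, Il4ra was read by 2 probes. The signal of the brighter one was 463 with DMSO and 436 with GW4064, and that of the dimmer one was 84.3 and 79.6. Both gave a log2 difference of -0.15, smaller than the software's error of 0.20 for the brighter and 0.22 for the dimmer. Of probes of like brightness, 18.5% and 27.7% were lower. Both probes read the same RNA on the same 2 arrays, so they are not replicates. Il2rg, the chain that Il4ra shares its receptor with and that also serves the receptors of IL-2, IL-7, IL-15 and IL-21, had signals of 4031 and 4244. Its log2 difference of 0.0086 was close to that of the median gene, and it lay between -0.18 and 0.011 under the 11 alternative settings.

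Il13ra1, which joins IL-4Rα in the receptor that also binds IL-13, had the largest difference of the 10. Its single probe had signals of 78.8 with DMSO and 54.9 with GW4064, a log2 difference of -0.59 or 1.5-fold lower. It was the only one of the 10 genes past 1.5-fold, where 5.56% of all genes measured were lower and 4.39% were higher by that much. The software's error estimate for this difference was 0.23. The spot was dim, however, and probes of that brightness scattered widely: of the 2055 probes within 0.5 on the log2 scale of its mean level, the 5th and 95th percentiles were -0.99 and 0.63, and 9.0% were lower than Il13ra1. The difference lay between -0.78 and -0.33 over the alternative settings, the weakest value coming from normexp, a background correction used here with an offset that shrinks differences between dim signals.

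The other receptor for IL-13, Il13ra2, binds the cytokine tightly without JAK and STAT6 signalling of its own and is known as a decoy. Its signal was 92.0 with DMSO and 42.7 with GW4064, a log2 difference of -1.17 or 2.25-fold lower. This too was a dim probe read at 1 spot, and 3.71% of 2075 probes of like brightness were lower. With normexp the log2 difference was -0.65. The genes of the cytokines themselves were at the limit of detection. Il4, printed at 10 spots of which 9 were kept, had mean signals of 21.2 and 23.5, was above background at 5 and 7 of those spots, and differed by 0.081 on the log2 scale where the copies had an SD of 0.59. Il13 was measured on neither array.

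**Figure D2:**
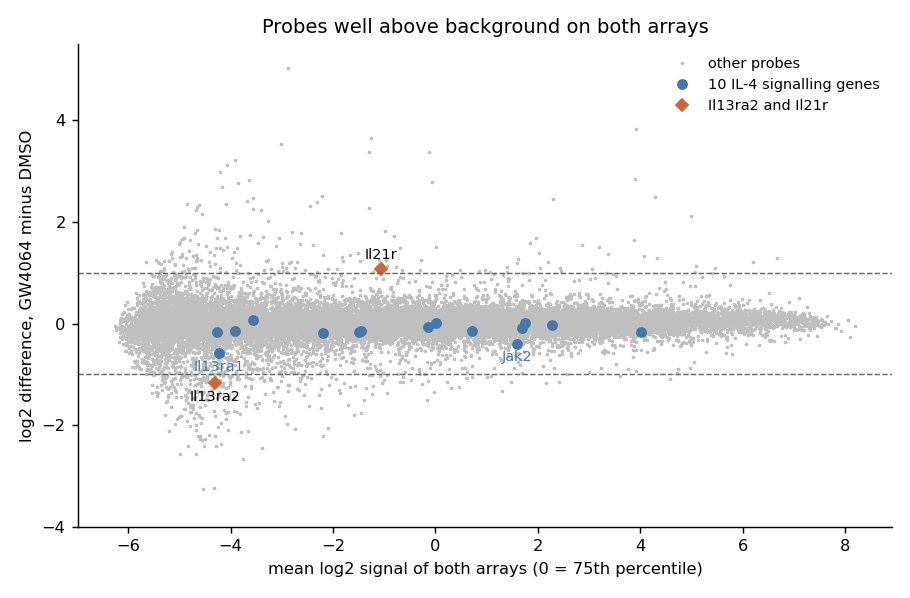
Log2 difference, GW4064 minus DMSO, against mean log2 signal of both arrays for every probe well above background on both (grey), with the 15 probes of the 10 genes as circles and Il13ra2 and Il21r as diamonds. Dashed lines mark 2-fold. The grey cloud is wider at low signal, where Il13ra1 (-0.59) lies inside it, and narrow at the level of Jak2 (-0.40), which lies at its lower edge.

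Of the kinases, Jak2 stood apart. JAK2 serves the receptors of GM-CSF, IL-3 and interferon gamma besides the IL-13Rα1 pair. Its single probe had signals of 4212 with DMSO and 3347 with GW4064, a log2 difference of -0.40 or 1.32-fold lower, with a software error of 0.20. Although smaller than the difference of Il13ra1, it was more unusual for its brightness. Of 2111 probes at that level, the 5th and 95th percentiles were -0.27 and 0.31, and 2.04% were lower than Jak2. Of all genes measured, 8.42% had a lower log2 difference. Under the alternatives it lay between -0.59 and -0.40, and the median difference of the spots around it on the slide was -0.11.

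The other kinases were 1.1-fold lower. Jak1, which sits on IL-4Rα itself and on many other cytokine receptors, had signals of 20579 and 19215 and a log2 difference of -0.16. Jak3, the kinase bound to the common gamma chain, was read by 2 probes. The first had signals of 283 and 259 and a log2 difference of -0.20, and the second had 455 and 422 and a log2 difference of -0.17. The second spot lay in a damaged area and the first did not. It was the only one of the 24 spots of the 10 genes in such an area. Tyk2, the partner kinase of JAK1 on IL-13Rα1, had signals of 2076 and 1975 and a log2 difference of -0.14. For Jak1, Jak3 and Tyk2 the software's error on each probe's difference was 0.20 or 0.21, larger than the difference. All 4 kinases had negative differences under each of the 11 alternative settings, between -0.38 and -0.14 for Jak1, Jak3 and Tyk2. Several of those settings could hardly move genes measured on both arrays, as the closing section describes.

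Stat6, the transcription factor that carries the IL-4 signal, was read by 3 probes. Their signals were 5946 with DMSO and 6088 with GW4064 for the brightest, 1114 and 1109 for the next, and 99.1 and 109 for the dimmest. The log2 differences were -0.032, -0.071 and 0.073, on both sides of 0, and their mean was -0.010. Over the alternatives the mean ran from -0.20, with spike-in centring, to 0.014.

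Stat3, which answers mainly to IL-6 and IL-10, had a probe printed at 10 spots, the only repeated one among the 10 genes. Its signals on the DMSO array ran from 3546 through a median of 4069 to 4262, and on the GW4064 array from 3667 through 3989.7 to 4180.1. The signals of both arrays overlapped. After scaling, 9 of the 10 spots were lower with GW4064, and the mean log2 difference was -0.085 (SD over spots 0.069). Copies on 1 slide share the same RNA, so this SD holds spot noise only. The second Stat3 probe was dim, with signals of 66.5 and 61.8 and a log2 difference of -0.17, and the mean of both probes was -0.13.

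**Figure D3:**
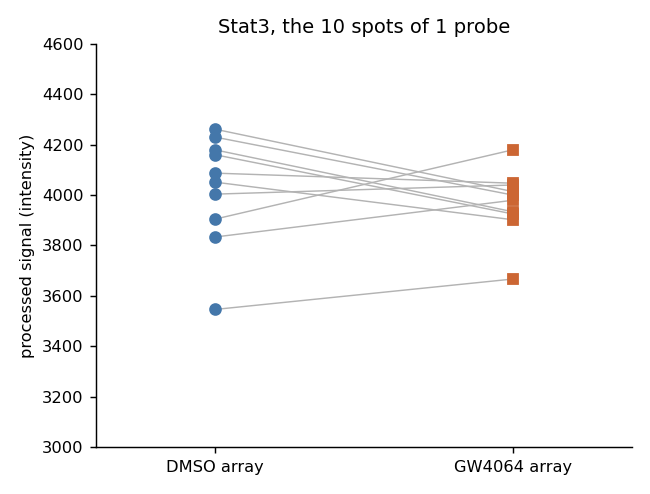
Processed signal at the 10 spots of the repeated Stat3 probe on the DMSO array and the GW4064 array, with a line joining the spot at the same place on each array. The spots cover 3546 to 4262 with DMSO and 3667 to 4180.1 with GW4064, before scaling, and the vertical axis does not start at 0.

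Irs2, the adaptor that links IL-4Rα to PI3K, had signals of 1217 and 1279.6 and a log2 difference of 0.0066. The 4 genes with several probes allowed a look at how far probes of 1 gene differed. The log2 differences of their probes spanned 0.0048 for Il4ra, 0.021 for Jak3, 0.086 for Stat3 and 0.14 for Stat6. Brightness varies between probes for the same transcript, so no order of mRNA levels between the 10 genes is given.

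**Figure D4:**
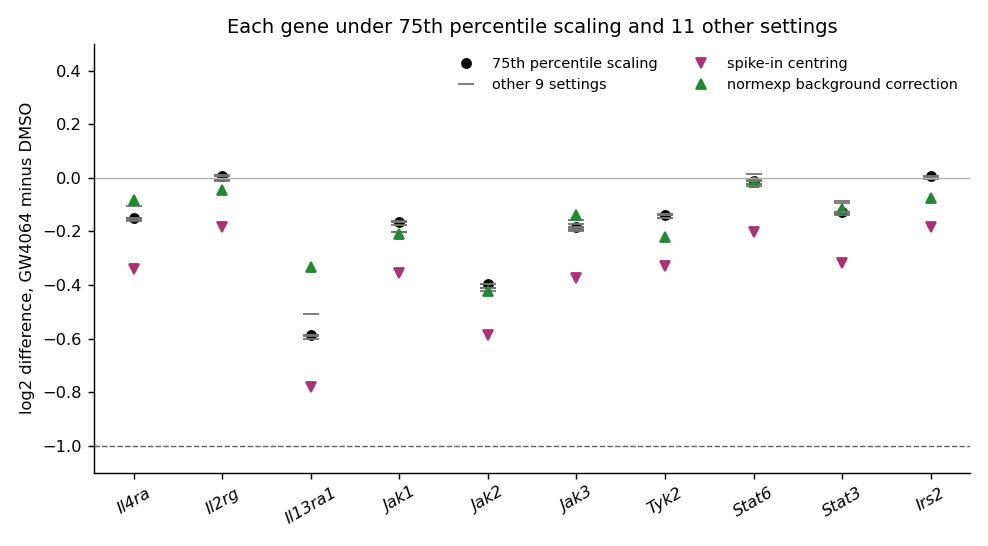
Log2 difference of each of the 10 genes, GW4064 minus DMSO, under 75th percentile scaling (circles), spike-in centring (downward triangles), normexp background correction (upward triangles) and the other 9 settings (dashes), with a dashed line at 2-fold lower. Il13ra1 and Jak2 have the lowest differences of the 10 in each setting, normexp moves Il13ra1 from -0.59 to -0.33, and spike-in centring moves all genes down by 0.19.

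Around the 10 genes, the rest of the pathway was described from lists of related genes. Of the other STAT genes, Stat2, Stat4, Stat5a and Stat5b are given here, and none of them reached 2-fold. That much was reached by 2.04% of all genes measured upward and by 2.71% downward. Stat2, which acts in interferon responses, had a log2 difference of -0.21, from signals of 4569.5 and 4127. Stat5a and Stat5b, the STATs of GM-CSF and IL-2 type receptors, had -0.16 and -0.068. Stat4, dim with signals of 18.6 and 25.1, had 0.37, which became negative (-0.13) with normexp.

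Among adaptors and PI3K genes, 5 of 10 were higher and 5 lower (1 and 9 with spike-in centring), with 0 past 1.5-fold. Of all genes measured, 4.39% were higher and 5.56% lower by 1.5-fold or more. The genes named by the rule were Dok2 with 0.10, Fes with -0.053, Shc1 with 0.063 and Dok1 with -0.12. Pik3cd, the catalytic PI3K subunit of leukocytes, was singled out after its values were seen, with a mean log2 difference of -0.40 over 3 probes, or -0.37 without the 1 probe in a damaged area. The 6 phosphatases all had negative differences, where 48.2% of all genes measured were lower by any amount. None of the 6 was past 1.5-fold, beside the same 4.39% and 5.56% of all genes measured. The median of the 6 was -0.051. Ptpn2 (-0.021) had 2 of its 3 probes higher and turned positive with quantile normalization (0.017) and with its brightest probe (0.038). Ptprc (CD45), a phosphatase that acts on JAKs, had signals of 10863 and 8567 and a log2 difference of -0.41. Inpp5d (SHIP1), which opposes PI3K, had -0.25. The SH2 phosphatases Ptpn6 and Ptpn11 had -0.038 and -0.063, within the copy noise of 0.077.

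Of 9 SOCS, PIAS and ubiquitin ligase genes, which inhibit the pathway, 8 were lower and 1 was higher, with a median log2 difference of -0.062. Of all genes measured, 48.2% were lower by any amount. The copy SD of 0.077 holds the noise of single spots and does not measure the spread of such a median. Socs1 and Cish are also counted in the STAT6 target list below. Socs1, which IL-4 induces and which blocks JAK kinases, had signals of 3882 and 2814 and a log2 difference of -0.53, read at 1 spot that lay in a damaged area. Cish, another IL-4 and STAT5 inducible inhibitor, had -0.14. Rnf128, a ubiquitin ligase, had -0.037 and Pias1 had -0.0095, both within the copy noise. Socs2 was the one higher, with a log2 difference of 0.81 over 3 probes, or 0.85 without spots in damaged areas. The spots of Ptpn11, and 1 probe each of Stat5b and Ncoa1, also lay in such areas. Of 6 STAT6 cofactors, 5 were lower and 1 higher, beside the same 48.2% of all genes measured that were lower. Parp14 was at -0.10, Crebbp at -0.24, Ncoa1 at -0.056 and Snd1 at 0.27.

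The listed STAT6 target genes covered a wider range of log2 differences than the genes of the signalling chain. Both lists were chosen with earlier results of these data known. The target list was also longer, and a longer list favours a wider range. Whether the targets varied more beyond such effects of choice and list size was not tested. Of 32 listed STAT6 target genes 30 were measured, and 18 were higher and 12 lower (13 and 17 with spike-in centring). By sign this was near the share of all genes measured, of which 51.6% were higher. Past 2-fold 3 targets were higher and 0 lower, against 2.04% and 2.71% of all genes measured. Arg1, the arginase of M2 macrophages, had signals of 4875 and 72297, 14.2-fold higher with GW4064. Tgm2, a transglutaminase, was 4.93-fold higher over 2 probes, with log2 differences of 2.12 and 2.48. Ptgs1, a cyclooxygenase, had signals of 7814 and 21081 and was 2.58-fold higher.

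Targets named for their bright probes did not share 1 direction. Mgl2, a lectin, was 1.98-fold higher from 36153 to 74914, and Retnla was 1.88-fold higher from 32778 to 64452. Chil3, a chitinase-like protein, had signals of 152215 and 166782 and a log2 difference of 0.066. Il4i1, an amino acid oxidase induced by IL-4, was 1.85-fold lower, from 51337 to 29099. In all, 8 targets were 1.5-fold or more higher and 1, Il4i1, lower by as much, against 4.39% and 5.56% of all genes measured. Besides those named these 8 held Clec10a (1.79-fold), Ccl17 (1.52-fold, with log2 differences of 0.36 with normexp and 0.41 with spike-in centring, both under 1.5-fold) and Ccl22 (at least 1.96-fold, from 1 spot in a damaged area, not well above background with DMSO, and a log2 difference of 0.28 with normexp). Past 1.5-fold there were 6 higher and 1 lower with normexp, and 7 higher and 5 lower with spike-in centring. Without damaged areas there were 7 and 1. With the brightest probe of each gene there were 8 and 2, the second lower gene being Itgb3 (log2 difference -0.80). Under 75th percentile scaling Itgb3 (-0.54), Socs1 (-0.53), Irf4 (-0.48), Pdcd1lg2 (-0.41) and Mrc1 (-0.34) were among the 12 lower targets. Of the 3 dendritic cell markers, the dim Flt3 and Zbtb46 were higher beside these targets, and Siglech was not (-0.041). Siglech was far brighter at 1 of its 2 probes and at background at the other. The part of such cells in the result was not tested. Over the 30 measured targets the median was 0.043 on the log2 scale, and it was -0.15 with spike-in centring and -0.017 with normexp, so that its sign depended on the setting. Chil3 and Chil4, and Mgl2 and Clec10a, are close copies whose RNA may bind each other's probes.

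**Figure D5:**
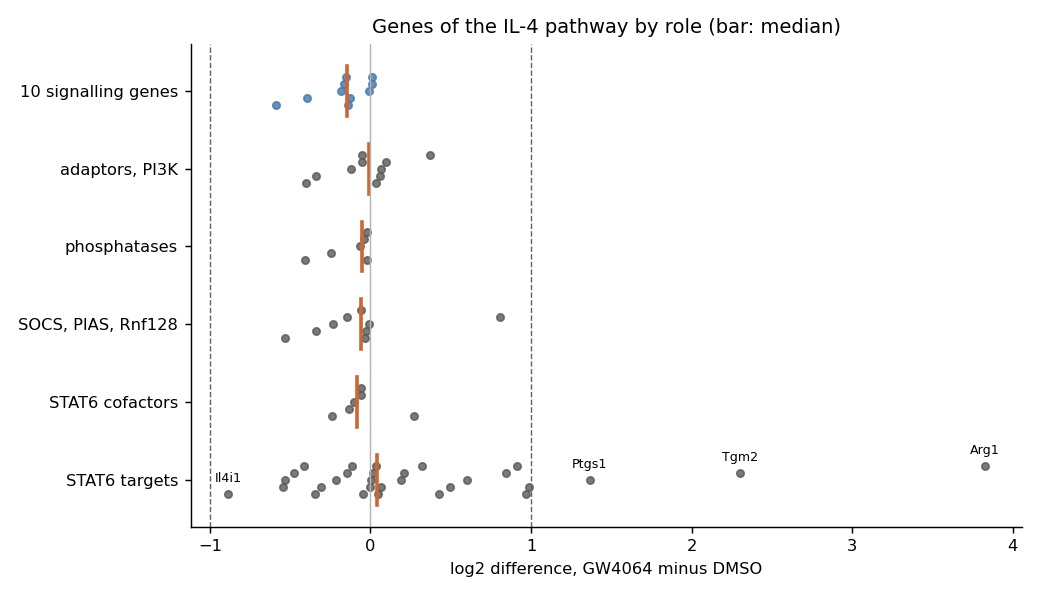
Log2 difference, GW4064 minus DMSO, of the measured genes of 6 lists of the IL-4 pathway by role, with the median of each group as a bar and dashed lines at 2-fold. The 10 signalling genes lie between -0.59 and 0.0086, whereas the STAT6 targets reach from -0.88 (Il4i1) to 3.82 (Arg1). The lists were chosen with earlier results of these data known.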

How the data were processed

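The members and gene lists were chosen with earlier results of these data known. Groups came from title, source and treatment, although the free-text description of the GW4064 sample repeats that of the DMSO sample. The authors deposited spot intensity values from Agilent Feature Extraction 10.7.1.1 (per the labels and headers), background-subtracted and detrended within each array and not scaled between arrays. They also deposited a log2 table (column medians 0.035 and -0.051). Its difference between arrays matched the one used here to within 0.001 for 39200 probes once a shift of 0.0022 was taken off, so its direction and scale are known and the baseline of each probe is not.

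Here log2 intensity was set against the 75th percentile of 43020 non-control spots. Spots marked non-uniform or outlier (399 with DMSO, 207 with GW4064) were left out, and copies of a probe were averaged. A probe well above background at most of its kept spots on an array (22518 and 22936 probes) counted as measured there. Where only 1 array measured it, the other took its own value or the lowest measured signal (15.7 or 15.1), whichever was higher, which gives a bound. A gene is the mean of its measured probes. RefSeq transcripts of GRCm38.p6 named 26581 probes, and since the array was designed on another build no coordinates are given. The error of a difference combines the software's estimates for both spots.

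All 10 genes are named with every probe. From other lists the rule took genes past 2-fold, ligand, second receptor and STAT genes, and up to 4 further genes with the highest mean signal. Pik3cd, Ptpn2, Socs2, Clec10a, Ccl17, Ccl22, Itgb3, Irf4, Pdcd1lg2, Mrc1, Il10rb, Csf2rb, Il10ra and Osmr were named outside this rule, after their values were seen. Calculations were tested on simulated data, and 11 alternative settings are compared in the closing section. Tools were limma 3.58.1 in R 4.3.3 and, in Python 3.11.15, pandas 2.3.3, numpy 2.4.6, statsmodels 0.14.6, scipy 1.17.1 and matplotlib 3.10.9. The experiments of the study other than these arrays were not analysed here, and values of some listed genes are not reported here.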

Additional observations from a re-analysis of the deposited data

How the results depend on the processing

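No paired analysis was possible because DMSO and GW4064 were each hybridised once, and leaving out a replicate was not possible for the same reason. Quantile normalization, median centring, loess, spike-in centring, the deposited table, normexp (offset 50), keeping marked spots, leaving out damaged areas, 2 other filters and the brightest probe were tried, with 1.5-fold and 4-fold as other thresholds. The number of the 10 genes past 2-fold was 0 in each direction in all of them, apart from 1 lower gene at 1.5-fold. The sign was kept by 7 of the 10 genes in all 11 settings, the exceptions being Il2rg, Irs2 and Stat6 with 0.0086, 0.0066 and -0.010. The number higher by any amount was 0 in place of 2 with median centring, loess, spike-in centring and normexp. Spike-in centring moved the median of the 10 genes to -0.33 and that of the STAT6 targets to -0.15, and shifted the genes past 2-fold from 276 higher and 367 lower (42.9% higher) to 211 and 522 (28.8% higher). Those counts over all genes were 72 and 64 with normexp, 168 and 202 without damaged areas, 698 and 767 without a filter on dim probes, 107 and 164 with probes well above background on both arrays only, 594 and 752 at 1.5-fold and 65 and 79 at 4-fold. A threshold, a filter or spots left out change such counts by construction, and spike-in centring takes 0.19 off every difference. The cause of that offset, and of the shift with normexp, was not tested. Of 110 values of single genes among the 10, 96 moved by less than the copy SD of 0.077, and 10 of the 14 others came from spike-in centring. Il13ra1, the dim Stat6 and Stat3 probes and Il13ra2 were dim, and probes of their brightness scattered more between arrays than those of Jak2's.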

Other observations

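Several other cytokine receptors of the macrophage use the same kinases. Of 16 such receptor genes, all measured, 9 were higher and 7 lower with GW4064, with a median log2 difference of 0.026. Past 2-fold there were 0, against 2.04% of all genes measured higher and 2.71% lower. Past 1.5-fold there was 1, against 4.39% higher and 5.56% lower. The 4 of the 16 with the highest signal were Csf2ra with 0.11, Crlf2 with 0.033, Csf2rb2 with 0.16 and Ifngr1 with -0.0018. Csf2rb2 and Csf2rb, the beta chains for IL-3 and for GM-CSF, are close copies. Csf2rb had 0.13, and 1 of the 2 Csf2rb2 probes lay in a damaged area. With spike-in centring 0 of the 16 were higher. Il10ra, the chain through which IL-10 activates STAT3, had signals of 4312 and 3461 and a log2 difference of -0.38, whereas its partner Il10rb had 0.15. Osmr, a receptor chain for oncostatin M, was dim, with signals of 59.7 and 35, and was 1.78-fold lower (a log2 difference of -0.38 with normexp).

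Of 6 further receptor genes of the common gamma chain family, 3 were measured. Il21r, the receptor for IL-21, had signals of 400.2 with DMSO and 881 with GW4064, 2.10-fold higher, at a level where the 5th and 95th percentiles of 2145 probes were -0.32 and 0.38. The probe was read at 1 spot outside damaged areas. Its log2 difference lay between 0.88 and 1.09 over the alternative settings. Il7r had -0.22 and Il15ra had 0.017, and Il2ra, Il2rb and Il9r stayed at background on both arrays.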
